A study of Mus musculus with 8 samples.

Results

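The cell cycle and proliferation genes described here are 40 genes listed by name, grouped here by textbook role into 15 for S phase, 22 for mitosis and 3 (Top2a, Mki67 and Ccna2) that act from S phase into mitosis. Each was read from the array probe set whose annotation gives that 1 gene symbol, taking the set with the highest mean signal where there were several. A probe set was found for 39 of the 40, among 19938 named genes and 28944 tested probe sets. Ccnb1, a mitotic cyclin, is not named alone by any probe set in the annotation used here, so mitosis was represented by 21 genes.

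The samples were excised paws of male DBA1/J mice, a strain in which immunisation with collagen gives arthritis. Mice entered at 8 to 10 weeks of age in 4 groups of 8, with 2 arrays per group (Affymetrix Mouse Gene 1.0 ST) and 8 in all. CIA+MLIF mice were injected at the tail base with chicken collagen II (150 µg) in complete Freund adjuvant, were boosted 3 weeks later in incomplete adjuvant, and received MLIF through the nose each week. MLIF stands for monocyte locomotion inhibitory factor, a peptide of 5 amino acids from the amoeba Entamoeba histolytica. CIA mice (collagen-induced arthritis) received the same injections without peptide. Adjuvant+MLIF mice received both adjuvants without collagen and weekly nasal MLIF for 9 weeks, and adjuvant mice received the adjuvants alone, so that complete and incomplete adjuvant were common to all 4 groups. The sample labels place collection 4 weeks after the booster, whereas the series text places it before. Whether an array held 1 mouse or a pool is not said, although the arrays are named biological replicates, and the p-values reflect only the variation from array to array, which may be partly technical.

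A dividing cell makes deoxynucleotides and loads the MCM helicase for DNA replication in S phase, then condenses and separates its chromosomes in mitosis under the kinases CDK1, PLK1 and the Aurora kinases. Transcription of the S phase genes is driven largely by E2F factors, and that of the mitotic genes, later in the cycle, by complexes that bind CHR elements and by the CCAAT-binding factor NF-Y. In a paw, dividing cells can belong to skin, hair follicles, marrow, stroma or infiltrating immune cells, and a whole-tissue array sums over them.

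Promoter windows of members are shown because the comparison of S phase with mitosis genes is also a comparison of promoter types. RefSeq windows (GRCm38.p6, 250 bases before to 50 after each start) were available for 33 of the 40 genes, in 36 windows, out of 32851 windows in all. Ccna2, Ccne2, Aurkb, Kif20a, Mcm4, Foxm1 and Tpx2 were not matched. The motifs searched, on both strands, were the CHR element TTTGAA, the CCAAT box CCAAT and an E2F motif TTTNNCGC. The windows printed are those of Rrm2 (chr12:24708004-24708303, + strand) and Pcna (chr2:132253131-132253430, - strand), the S phase genes with the largest change in CIA, and of Ccnb2 (chr9:70421505-70421804, - strand) and Kif11 (chr19:37376132-37376431, + strand), the mitosis genes with the largest. Mcm6 (chr1:128359656-128359955, - strand) and Top2a (chr11:99024140-99024439, - strand) were added after their matches were seen, as examples of several E2F matches and several CCAAT boxes. Capitals mark the matches.
Rrm2: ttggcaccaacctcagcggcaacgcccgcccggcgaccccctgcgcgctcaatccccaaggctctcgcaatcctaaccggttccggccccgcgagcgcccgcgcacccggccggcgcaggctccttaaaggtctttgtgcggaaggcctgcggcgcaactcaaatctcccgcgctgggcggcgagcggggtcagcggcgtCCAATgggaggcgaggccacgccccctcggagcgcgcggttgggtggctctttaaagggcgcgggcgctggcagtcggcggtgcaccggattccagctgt
Pcna: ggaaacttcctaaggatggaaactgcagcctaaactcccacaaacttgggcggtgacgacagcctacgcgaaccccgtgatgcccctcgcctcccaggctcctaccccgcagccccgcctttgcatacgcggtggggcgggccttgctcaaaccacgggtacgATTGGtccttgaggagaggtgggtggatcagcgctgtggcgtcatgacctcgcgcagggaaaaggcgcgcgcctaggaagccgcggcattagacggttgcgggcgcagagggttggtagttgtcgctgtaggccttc
Mcm6: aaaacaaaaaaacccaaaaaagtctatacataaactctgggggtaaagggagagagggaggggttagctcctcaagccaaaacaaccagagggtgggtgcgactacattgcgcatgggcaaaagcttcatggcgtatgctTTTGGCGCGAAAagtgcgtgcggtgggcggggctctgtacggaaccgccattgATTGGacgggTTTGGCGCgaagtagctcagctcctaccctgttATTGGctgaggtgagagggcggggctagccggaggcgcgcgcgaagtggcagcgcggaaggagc
Ccnb2: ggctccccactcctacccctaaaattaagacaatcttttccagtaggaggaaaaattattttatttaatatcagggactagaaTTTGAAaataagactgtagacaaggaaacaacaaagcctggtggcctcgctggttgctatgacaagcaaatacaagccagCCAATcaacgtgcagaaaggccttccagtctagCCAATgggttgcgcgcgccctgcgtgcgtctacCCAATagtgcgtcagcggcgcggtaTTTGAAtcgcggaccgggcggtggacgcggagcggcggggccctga
Kif11: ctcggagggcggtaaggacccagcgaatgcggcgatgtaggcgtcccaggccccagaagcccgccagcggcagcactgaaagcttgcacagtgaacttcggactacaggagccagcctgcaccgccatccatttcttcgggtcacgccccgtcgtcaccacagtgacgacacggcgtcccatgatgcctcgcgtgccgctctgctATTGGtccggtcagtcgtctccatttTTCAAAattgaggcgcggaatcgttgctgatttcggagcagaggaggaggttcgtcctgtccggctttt
Top2a: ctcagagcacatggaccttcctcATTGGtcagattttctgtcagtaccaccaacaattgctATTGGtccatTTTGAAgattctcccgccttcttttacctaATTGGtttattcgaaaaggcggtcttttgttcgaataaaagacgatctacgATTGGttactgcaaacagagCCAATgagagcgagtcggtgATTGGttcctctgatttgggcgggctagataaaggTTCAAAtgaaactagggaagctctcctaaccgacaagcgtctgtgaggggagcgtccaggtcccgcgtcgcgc

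In these windows the S phase genes Rrm2 and Pcna held 1 CCAAT box each and neither of the other motifs. Mcm6 held 2 CCAAT boxes and 3 E2F matches, 2 of which overlap in the first run of capitals. Ccnb2 held 2 CHR matches and 3 CCAAT boxes, Kif11 held 1 of each, and Top2a held 2 CHR matches and 6 CCAAT boxes. The classes differed in the motifs they carried: a CHR match lay in 15 of 20 mitosis windows (75%) and in 2 of 14 S phase windows (14.3%), beside 17.9% of all windows. An E2F match lay in 1 of 20 mitosis windows (5%) and in 6 of 14 S phase windows (42.9%), beside 5.17% of all windows. CCAAT boxes lay in 85% of mitosis and 71.4% of S phase windows, beside 37.4% of all. A CHR match together with a CCAAT box lay in 70% of mitosis windows and 6.95% of all. The 20 mitosis windows belong to 18 genes, among them the unmeasured Ccnb1, and the 14 S phase windows to 13. Ect2 and Prc1 each have overlapping windows with the same matches, so windows are not independent. A match is a description of letters in the window and was not tested for binding.

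Signals are log2 values as deposited, on which a difference of 1 is a 2-fold difference, and a gene passed where its adjusted p was under 0.05 in a limma fit over all probe sets. The number of arrays limits the precision, and the standard error of a change had a median of 0.18 for CIA against adjuvant. CIA replicate 1 stood apart, with a median signal of 6.66 over the tested probe sets against 7.07 to 7.10 on the other 7 arrays, and the changes over all probe sets had a median of -0.25 in CIA against adjuvant and 0.24 in CIA+MLIF against CIA. The 2 adjuvant+MLIF arrays were unusually alike (SD of their difference 0.0936, against 0.207 to 0.324 in the other groups). Of the 39 members, 25 lay above the median of the entries taken as array controls on all 8 arrays. Ccne2, Cenpe, Nusap1 and Kif4 lay above it on none, and Cdc6 and Bub1 on 1, so the sizes of their differences are not well determined.

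Cell cycle genes were higher in CIA paws than in adjuvant paws. Of 39 members, 15 rose and 0 fell, beside 4.30% of all probe sets that rose and 14.2% that fell. The 3 spanning genes all rose, 10 of 21 mitosis genes rose, and 2 of 15 S phase genes rose. Median log2 changes were 0.99 for the spanning, 0.60 for the mitosis and 0.25 for the S phase genes, beside -0.25 for all probe sets. Both CIA arrays lay above both adjuvant arrays for 28 members and below them for 0, beside 12.5% and 44.7% of all probe sets. The count rests on single arrays. Without adjuvant replicate 1 or replicate 2, in fits that take the lone adjuvant array to vary like the other groups, 2 members rose (1 spanning, 1 S phase and 0 of 21 mitosis genes), beside 2.08% and 2.27% of all probe sets, while the mitosis median stayed at 0.60 and 0.57. Fewer members passed without any 1 CIA+MLIF or adjuvant+MLIF array, while the median over the 39 members stayed at 0.45. Without CIA replicate 1 the 39 members had a median log2 change of 0.67, beside -0.04 for all probe sets. Without CIA replicate 2 the medians were 0.24 and -0.44, with 31 members above 0 and 8 below, 6 of them S phase genes. After quantile normalization, which gives all arrays 1 distribution, 33 members rose (9 of 15 S phase, 21 of 21 mitosis and 3 of 3 spanning), beside 14.4% of all probe sets that rose and 13.7% that fell.

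Cell cycle genes were lower in CIA+MLIF paws than in CIA paws. Of 39 members, 12 fell and 0 rose, beside 3.25% of all probe sets that fell and 11.5% that rose. The 3 spanning genes, 8 of 21 mitosis genes and 1 of 15 S phase genes fell, with median log2 changes of -1.18, -0.59 and -0.31, beside 0.24 for all probe sets. Both CIA+MLIF arrays lay below both CIA arrays for 27 members, beside 10.9% of all probe sets that did so and 40.7% that lay above. Without CIA+MLIF replicate 1 most of the 12 no longer passed, and without replicate 2 fewer passed. The medians over the 39 members were then -0.46 and -0.53, beside 0.23 and 0.24 for all probe sets. Fewer also passed without any 1 adjuvant or adjuvant+MLIF array, while the member median stayed at -0.50. Without CIA replicate 1 the 39 members had a median log2 change of -0.78, beside 0.03 for all probe sets. Without CIA replicate 2 the medians were -0.26 and 0.43, with 32 members below 0 and 7 above, 5 of them S phase genes. This comparison shares its CIA arrays with CIA against adjuvant. After quantile normalization 33 members fell, 10 of 15 S phase, 20 of 21 mitosis and 3 of 3 spanning, beside 13% of all probe sets that fell and 11.5% that rose.

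**Figure D1:**
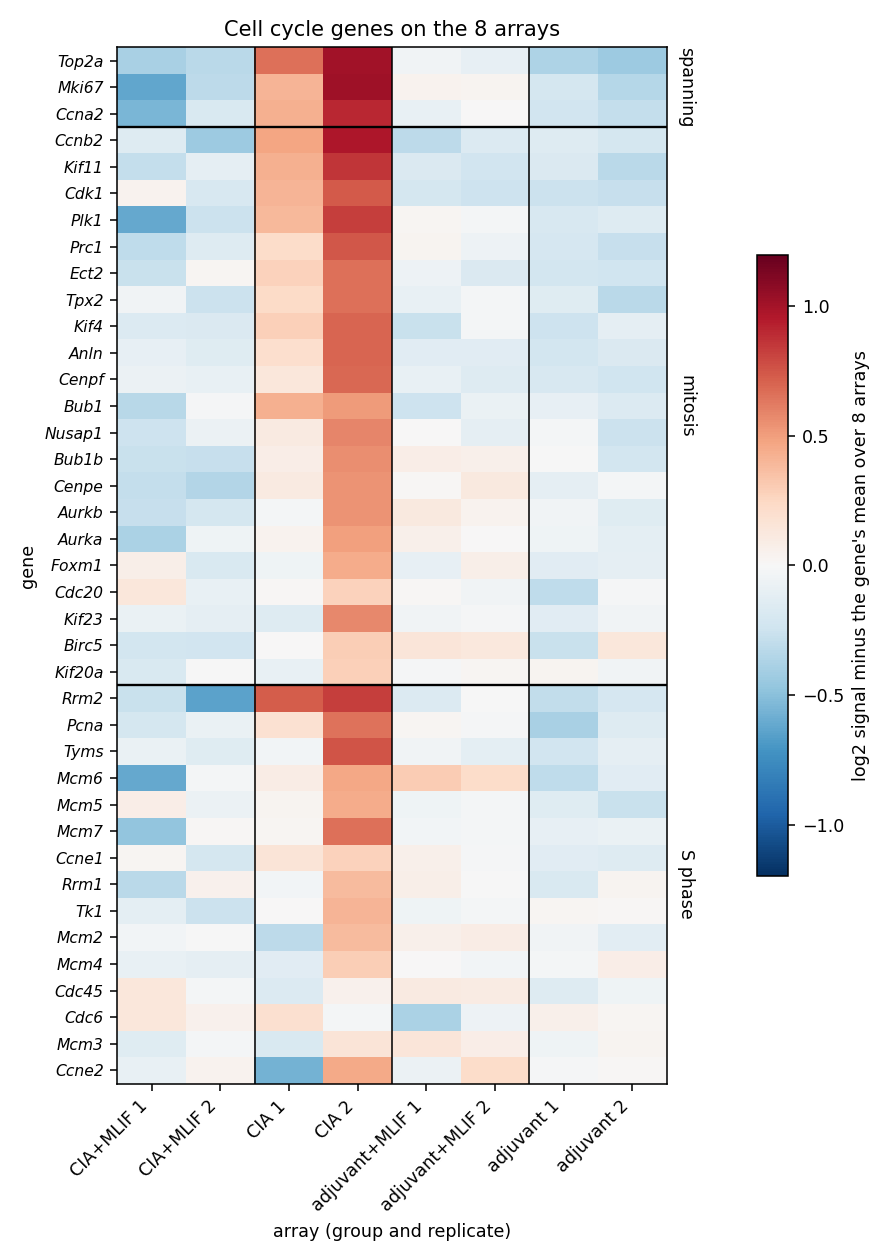
Log2 signal of each of the 39 measured members on each of the 8 arrays, relative to the member's own mean over the arrays, with genes in rows by class and arrays in columns by group. The 2 CIA columns hold the highest values for most mitosis and spanning genes, whereas genes such as Mcm3, Cdc6 and Cdc45 differ little between columns.

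The 3 genes that act from S phase into mitosis passed in both comparisons. Top2a encodes topoisomerase II alpha, which untangles replicated chromosomes. Its log2 signals were 6.81 and 6.88 in CIA+MLIF, 7.86 and 8.20 in CIA, 7.16 and 7.10 in adjuvant+MLIF, and 6.83 and 6.76 in adjuvant paws. The CIA arrays stood above the other 6 with no overlap. Top2a rose by 1.23 in CIA against adjuvant (SE 0.16, adjusted p = 0.000861) and fell by 1.18 in CIA+MLIF against CIA (SE 0.16, adjusted p = 0.00154). A second, much dimmer Top2a probe set (3.24 and 3.85 in CIA, 3.13 and 3.07 in adjuvant) differed by 0.45 in CIA against adjuvant and did not pass (adjusted p = 0.142).

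Mki67 encodes Ki-67, the protein that coats mitotic chromosomes and serves as the standard stain for cycling cells. Its log2 signals were 7.25 and 7.56 in CIA+MLIF, 8.29 and 8.89 in CIA, 7.92 and 7.91 in adjuvant+MLIF, and 7.66 and 7.54 in adjuvant paws. The CIA arrays were again the highest, and the CIA+MLIF arrays lay below both adjuvant+MLIF arrays. The log2 change was 0.99 in CIA against adjuvant (SE 0.21, adjusted p = 0.0126) and -1.18 in CIA+MLIF against CIA (SE 0.21, adjusted p = 0.00649). Ccna2, the cyclin that partners CDK2 in S phase and CDK1 at mitotic entry, had 6.47 and 6.84 in CIA+MLIF, 7.44 and 7.92 in CIA, 6.92 and 7.02 in adjuvant+MLIF, and 6.78 and 6.73 in adjuvant paws. It rose by 0.92 in CIA (SE 0.20, adjusted p = 0.0123) and fell by 1.03 with MLIF in CIA (SE 0.20, adjusted p = 0.00903).

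**Figure D2:**
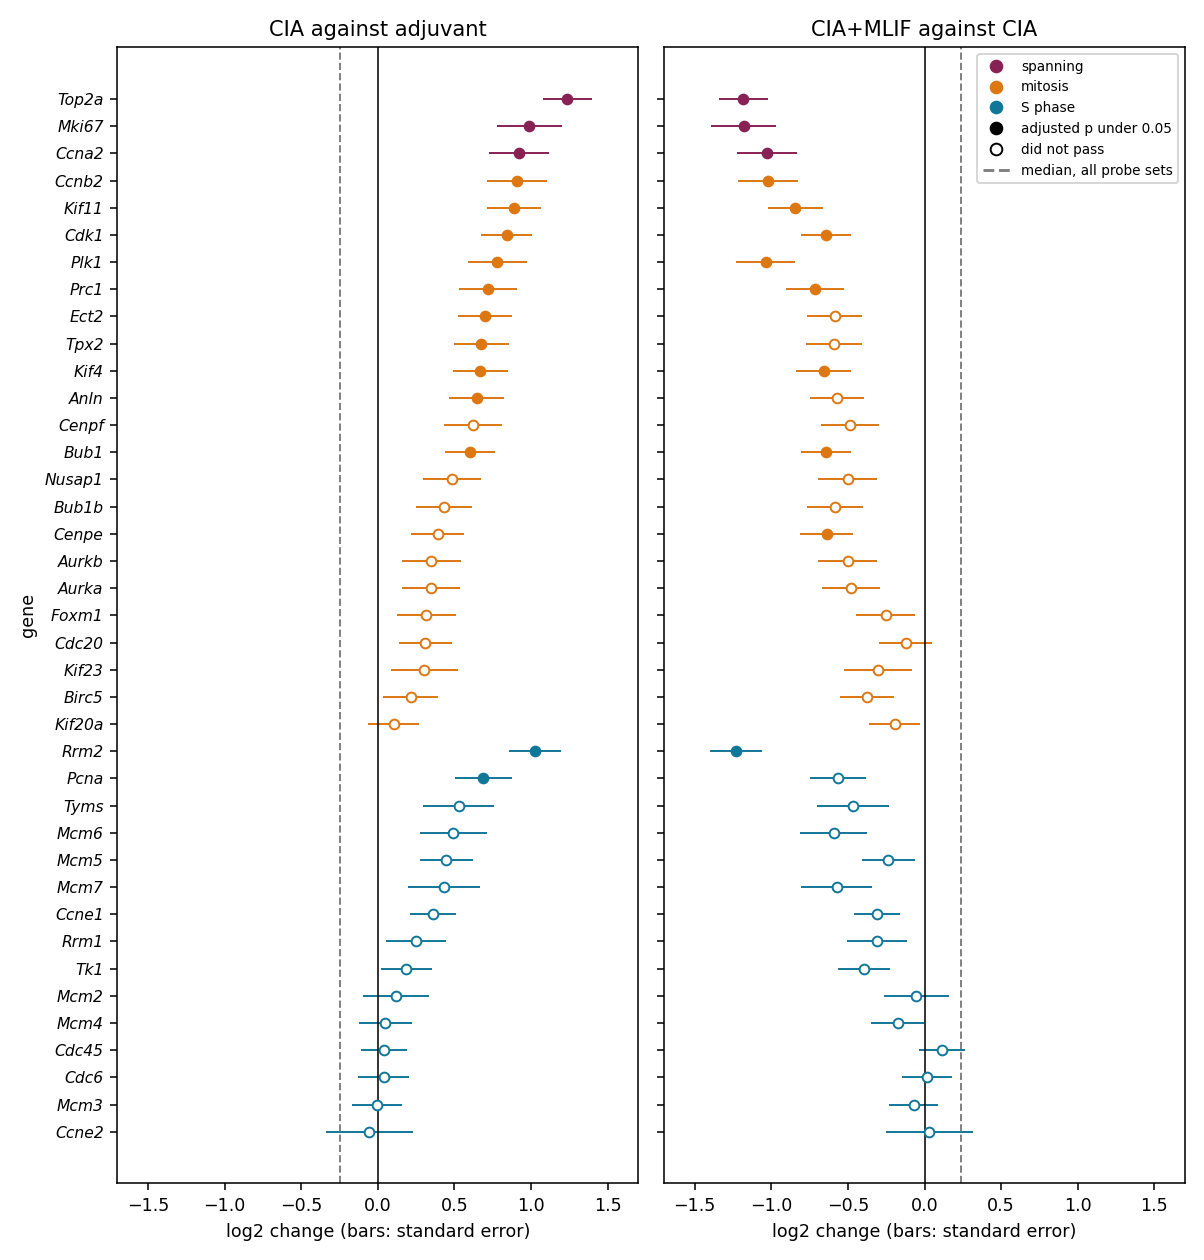
Log2 change of each member with its standard error, for CIA against adjuvant and for CIA+MLIF against CIA, grouped by class, with filled points for an adjusted p under 0.05, open points for the rest and a dashed line at the median of all probe sets. Most spanning and mitosis genes lie above 0 in the first comparison and below 0 in the other, with Top2a at 1.23 and -1.18, and Mcm3, Cdc6 and Cdc45 lie near 0.

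Of the mitotic cyclins, their kinase and their transcription factor, Ccnb2 and Cdk1 passed in both comparisons. Ccnb2, cyclin B2, had log2 signals of 6.86 and 6.58 in CIA+MLIF, 7.49 and 7.99 in CIA, 6.70 and 6.85 in adjuvant+MLIF, and 6.86 and 6.80 in adjuvant paws. It rose by 0.91 in CIA (SE 0.19, adjusted p = 0.0126) and fell by 1.02 with MLIF in CIA (SE 0.19, adjusted p = 0.0089). Cdk1, the kinase that drives entry into mitosis, had 6.67 and 6.44 in CIA+MLIF, 7.04 and 7.36 in CIA, 6.42 and 6.38 in adjuvant+MLIF, and 6.37 and 6.35 in adjuvant paws. Both genes had their highest signals on the CIA arrays, without overlap with any other group. Cdk1 rose by 0.84 (SE 0.16, adjusted p = 0.00801) and fell by 0.64 with MLIF (SE 0.16, adjusted p = 0.0316). Foxm1, a transcription factor for mitotic genes, lay near the control entries, with 6.32 and 6.83 in CIA and 6.25 and 6.27 in adjuvant paws, and did not pass (log2 change 0.32, SE 0.19, adjusted p = 0.261).

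Of the 4 mitotic kinases and chromosomal passenger genes, only Plk1 passed, in both comparisons. Plk1, polo-like kinase 1, had log2 signals of 6.53 and 6.89 in CIA+MLIF, 7.53 and 7.97 in CIA, 7.17 and 7.12 in adjuvant+MLIF, and 6.95 and 6.98 in adjuvant paws. It rose by 0.78 in CIA (SE 0.19, adjusted p = 0.0226) and fell by 1.04 with MLIF in CIA (SE 0.19, adjusted p = 0.00728), and its CIA+MLIF arrays were the lowest of the 8. The Aurora kinase genes Aurka and Aurkb had changes of 0.35 and 0.35 in CIA against adjuvant and -0.48 and -0.50 in CIA+MLIF against CIA. Birc5, survivin, a partner of Aurora B, had 0.21 and -0.38. None of these 3 passed.

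The checkpoint, anaphase and kinetochore genes had a median change of 0.43 in CIA against adjuvant and -0.59 in CIA+MLIF against CIA. Bub1, a checkpoint kinase at kinetochores, rose by 0.60 in CIA (SE 0.16, adjusted p = 0.0332) and fell by 0.64 with MLIF (SE 0.16, adjusted p = 0.0298). Its signals, at 5.26 and 5.58 in CIA+MLIF, 6.02 and 6.11 in CIA, 5.35 and 5.52 in adjuvant+MLIF and 5.50 and 5.43 in adjuvant paws, exceeded the control median only on CIA replicate 1. Cenpe, a kinetochore motor, also fell with MLIF (-0.64, SE 0.17, adjusted p = 0.0384) from a low level. Bub1b, Cenpf and Cdc20, the activator of the anaphase-promoting complex, did not pass in either comparison.

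Of the 7 spindle motors and bundling proteins, 4 passed in CIA against adjuvant and 3 in CIA+MLIF against CIA. Kif11, the motor that pushes the spindle poles apart, had log2 signals of 6.11 and 6.29 in CIA+MLIF, 6.83 and 7.26 in CIA, 6.23 and 6.17 in adjuvant+MLIF, and 6.23 and 6.08 in adjuvant paws. It lay above the control median on the CIA arrays alone, so the sizes of its changes, 0.89 in CIA (SE 0.18, adjusted p = 0.0089) and -0.84 with MLIF (SE 0.18, adjusted p = 0.0142), are not well determined. Prc1, which bundles the microtubules of the central spindle, had 6.19 and 6.35 in CIA+MLIF, 6.73 and 7.25 in CIA, 6.53 and 6.45 in adjuvant+MLIF, and 6.30 and 6.23 in adjuvant paws. Its changes were 0.72 (SE 0.19, adjusted p = 0.0293) and -0.71 (SE 0.19, adjusted p = 0.0358). The chromokinesin gene Kif4 had 5.28 and 5.27 in CIA+MLIF, 5.72 and 6.14 in CIA, 5.17 and 5.41 in adjuvant+MLIF, and 5.20 and 5.33 in adjuvant paws, and passed in both comparisons (0.67, adjusted p = 0.032, and -0.66, adjusted p = 0.0397). Tpx2, which activates Aurora A on the spindle, passed only in CIA against adjuvant (0.68), and Kif23, Kif20a and Nusap1 passed in neither.

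Both cytokinesis genes rose in CIA. Ect2, the exchange factor that places the contractile ring, had log2 signals of 6.44 and 6.73 in CIA+MLIF, 6.98 and 7.37 in CIA, 6.64 and 6.53 in adjuvant+MLIF, and 6.48 and 6.46 in adjuvant paws. It rose by 0.70 in CIA (SE 0.18, adjusted p = 0.0271), and the change of -0.59 with MLIF did not pass (adjusted p = 0.0587). Anln, anillin, a scaffold of the ring, rose by 0.64 in CIA (adjusted p = 0.0371) and differed by -0.57 with MLIF (adjusted p = 0.0637).

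Of the 15 S phase genes, Rrm2 passed in both comparisons and Pcna in CIA against adjuvant. Rrm2 encodes the small subunit of ribonucleotide reductase, which is made in S phase and limits the supply of deoxynucleotides. Its log2 signals were 6.65 and 6.27 in CIA+MLIF, 7.64 and 7.74 in CIA, 6.75 and 6.91 in adjuvant+MLIF, and 6.62 and 6.72 in adjuvant paws. It rose by 1.03 in CIA (SE 0.17, adjusted p = 0.00323) and fell by 1.23 with MLIF in CIA (SE 0.17, adjusted p = 0.00169). Rrm1, the large subunit, had a change of 0.25 in CIA against adjuvant (SE 0.20, adjusted p = 0.373) and -0.31 in CIA+MLIF against CIA (SE 0.20, adjusted p = 0.291).

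The thymidylate genes did not pass in either comparison. Tyms, thymidylate synthase, had log2 signals of 6.84 and 6.77 in CIA+MLIF, 6.88 and 7.67 in CIA, 6.87 and 6.79 in adjuvant+MLIF, and 6.69 and 6.80 in adjuvant paws. Only CIA replicate 2 stood clear of the other groups, and the change of 0.53 did not pass (SE 0.23, adjusted p = 0.142). Tk1, thymidine kinase 1, had 7.72 and 7.58 in CIA+MLIF, 7.84 and 8.25 in CIA, 7.78 and 7.82 in adjuvant+MLIF, and 7.86 and 7.86 in adjuvant paws, with CIA and adjuvant overlapping. Its changes were 0.19 and -0.40 on this probe set and 0.09 and -0.11 on a dimmer one.

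Pcna, the sliding clamp of DNA polymerase, rose in CIA. Its log2 signals were 9.25 and 9.38 in CIA+MLIF, 9.65 and 10.11 in CIA, 9.49 and 9.45 in adjuvant+MLIF, and 9.08 and 9.31 in adjuvant paws. It rose by 0.69 in CIA (SE 0.18, adjusted p = 0.0323), and its change of -0.57 with MLIF did not pass (adjusted p = 0.0719). A second Pcna probe set read nearly the same (9.65 and 10.15 in CIA, 9.08 and 9.29 in adjuvant), so that the sets may not be independent measurements. The S phase cyclin gene Ccne1 had changes of 0.36 and -0.31 and did not pass.

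The 8 genes of the replicative helicase and its loading did not pass in either comparison, with medians of 0.08 in CIA against adjuvant and -0.12 in CIA+MLIF against CIA. The MCM genes encode the helicase ring. Mcm6 had log2 signals of 6.68 and 7.28 in CIA+MLIF, 7.38 and 7.76 in CIA, 7.61 and 7.52 in adjuvant+MLIF, and 6.99 and 7.16 in adjuvant paws. The adjuvant+MLIF arrays lay within the range of the CIA arrays, and the CIA+MLIF arrays lay farther apart than those of any other group. Mcm6 changed by 0.49 in CIA (SE 0.22, adjusted p = 0.144) and -0.59 with MLIF (SE 0.22, adjusted p = 0.0995), without passing.

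Mcm7 had 7.35 and 7.83 in CIA+MLIF, 7.85 and 8.49 in CIA, 7.79 and 7.80 in adjuvant+MLIF, and 7.73 and 7.74 in adjuvant paws, with its highest value on CIA replicate 2. Mcm5 had 7.56 and 7.41 in CIA+MLIF, 7.51 and 7.93 in CIA, 7.42 and 7.46 in adjuvant+MLIF, and 7.34 and 7.21 in adjuvant paws. The Mcm7 and Mcm5 changes in CIA against adjuvant were 0.43 and 0.45 and neither passed. The members nearest to no change were Mcm3 (-0.006), Cdc6 (0.04), which loads the helicase, and Cdc45 (0.04), which activates it. Mcm3 had 7.39 and 7.50 in CIA+MLIF, 7.35 and 7.68 in CIA, 7.67 and 7.61 in adjuvant+MLIF, and 7.48 and 7.56 in adjuvant paws. Cdc45 had 7.48 and 7.32 in CIA+MLIF, 7.18 and 7.39 in CIA, 7.45 and 7.44 in adjuvant+MLIF, and 7.19 and 7.29 in adjuvant paws, and Cdc6 had 6.18 and 6.09 in CIA+MLIF, 6.23 and 6.01 in CIA, 5.66 and 5.98 in adjuvant+MLIF, and 6.10 and 6.07 in adjuvant paws. In Mcm3, Cdc45 and Cdc6 the CIA and adjuvant arrays overlapped. All 3 lay above the median change of all probe sets (-0.25).

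To compare the classes directly, each member's log2 signal was taken relative to its own mean over the 8 arrays and averaged over a class on each array. The mitosis mean was -0.19 and -0.16 in CIA+MLIF, 0.17 and 0.60 in CIA, -0.06 and -0.05 in adjuvant+MLIF, and -0.15 and -0.16 in adjuvant paws. The S phase mean was -0.14 and -0.10 in CIA+MLIF, -0.002 and 0.41 in CIA, -0.001 and 0.03 in adjuvant+MLIF, and -0.13 and -0.07 in adjuvant paws. CIA replicate 1 was lower than replicate 2 in both means, as in its median over all probe sets, and a shift common to both classes cancels in their difference.

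S phase minus mitosis was 0.05 and 0.07 in CIA+MLIF, -0.17 and -0.19 in CIA, 0.06 and 0.08 in adjuvant+MLIF, and 0.02 and 0.09 in adjuvant paws. Since each gene is centred on its own mean, only differences between arrays have a meaning, and both CIA arrays lay below the other 6. The group difference was -0.23 for CIA against adjuvant and 0.24 for CIA+MLIF against CIA, beside a pooled SD between replicate arrays of 0.026. It was 0.01 for adjuvant+MLIF against adjuvant and -0.008 for CIA+MLIF against adjuvant+MLIF, both within that SD. With Rrm2 left out of the S phase genes the CIA arrays lay at -0.22 and -0.22, against 0.03 to 0.10 on the other 6. Over the 12 S phase and 10 mitosis genes above the control median on all arrays they lay at -0.18 and -0.21, against 0.005 to 0.11. Both of these subsets were chosen after the values were seen.

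**Figure D3:**
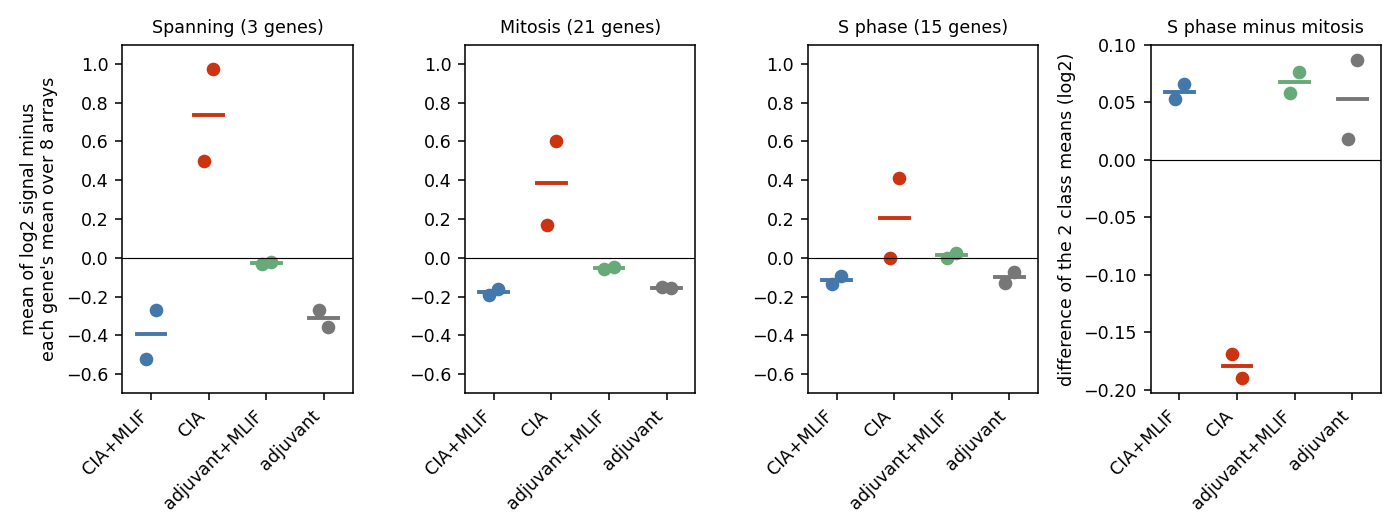
Mean log2 signal of the spanning, mitosis and S phase genes, relative to each gene's own mean, and the S phase minus mitosis difference, for each of the 8 arrays by group. Points are single arrays and short lines group means. On the CIA arrays the difference was -0.17 and -0.19, and on the other 6 it lay between 0.02 and 0.09.

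MLIF without collagen had no member that passed. In adjuvant+MLIF against adjuvant, 0 of 39 members and 0% of all probe sets passed in limma's moderated test, and 0 members had an unadjusted p under 0.05, beside 3.82% of all probe sets. With limma's array weights 2 members rose, but the share of all probe sets under that setting is not given here, so nothing is read from them. The changes had a median of 0.12, beside 0.03 for all probe sets, with 34 above 0 and 5 below. The smallest p belonged to Mcm6 (0.48, SE 0.22, unadjusted p = 0.0547) and Top2a (0.33, SE 0.16, unadjusted p = 0.0669), whose array values are given above. Arrays of the groups did not overlap for 25 members higher with MLIF, beside 31.7% of all probe sets, and for 2 lower, beside 23%.

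CIA+MLIF paws lay close to adjuvant+MLIF paws. In limma's moderated test 0 of 39 members passed, beside 0.712% of all probe sets that were higher and 0.0173% that were lower, and 3 members had an unadjusted p under 0.05, beside 4.70% of all probe sets. No alternative setting gave a passing member. The median change was -0.10, beside -0.03 for all probe sets. Both CIA+MLIF arrays lay below both adjuvant+MLIF arrays for 18 members, beside 32.2%, and above them for 2, beside 21%. The smallest p belonged to Mcm6 (-0.58, SE 0.22, unadjusted p = 0.0256) and Mki67 (-0.50, SE 0.21, unadjusted p = 0.0415). With 2 arrays per group, differences of this size were not resolved.

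The interaction asks whether MLIF changed a gene differently in collagen-immunised and in adjuvant mice. Of 39 members, 5 had a lower change with MLIF in collagen-immunised mice and 0 a higher one, beside 1.62% of all probe sets lower and 5.62% higher. They were Top2a (-1.52, SE 0.23, adjusted p = 0.0041), Mki67 (-1.49, SE 0.30, adjusted p = 0.0168), Rrm2 (-1.39, SE 0.24, adjusted p = 0.00774), Ccna2 (-1.24, SE 0.28, adjusted p = 0.028) and Plk1 (-1.21, SE 0.27, adjusted p = 0.0271). Each of these genes fell in CIA+MLIF against CIA, and had a change of 0.16 to 0.33, which did not pass, in adjuvant+MLIF against adjuvant. Most of the 5 no longer passed without any 1 adjuvant or adjuvant+MLIF array, or without CIA+MLIF replicate 1. The interaction over the 39 members then had medians of -0.63 to -0.59, beside 0.20 to 0.21 for all probe sets. Without CIA+MLIF replicate 2 the median was -0.66. Without CIA replicate 1 the interaction over the 39 members had a median of -0.86, beside 0.003 for all probe sets. Without CIA replicate 2 the medians were -0.40 and 0.40, with 34 members below 0 and 5 above. After quantile normalization 27 members were lower, beside 8.79% of all probe sets that were lower and 8.61% that were higher.

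Other genes of the cycle were read from 6 further lists, of which 104 of 107 genes were measured. Of 35 further mitosis genes, 8 rose and 0 fell in CIA against adjuvant (median 0.42), beside 4.30% of all probe sets that rose and 14.2% that fell. The rises were led by the mitotic kinase Pbk (0.71), the kinetochore gene Spc25 (0.69) and the checkpoint gene Mad2l1 (0.63). In CIA+MLIF against CIA, 5 of the 35 fell and 0 rose (median -0.42), beside 3.25% of all probe sets that fell and 11.5% that rose. Mad2l1 had 7.16 and 7.17 in CIA+MLIF, 7.78 and 8.23 in CIA, 7.40 and 7.37 in adjuvant+MLIF, and 7.31 and 7.43 in adjuvant paws, and fell by 0.84 with MLIF (SE 0.17, adjusted p = 0.0128). Of 28 further replication genes, such as the origin recognition and GINS subunits, 0 passed in limma's test in either comparison. Their medians were -0.04 and 0.05, beside -0.25 and 0.24 for all probe sets. Of the 28, 23 lay above the median change of all probe sets in CIA, and 4 did so with MLIF. The mean of the replication list minus that of the mitosis list was 0.08 and 0.08 in CIA+MLIF, -0.25 and -0.33 in CIA, 0.10 and 0.09 in adjuvant+MLIF, and 0.10 and 0.12 in adjuvant paws, with both CIA arrays below the other 6. This contrast was added after the values were seen, from lists chosen with earlier results of these data known, so it is not independent support.

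Genes that control the start of the cycle were read against 4.30% of all probe sets that rose and 14.2% that fell in CIA, and 11.5% that rose and 3.25% that fell with MLIF. Of 9 G1 cyclins, CDKs and CDC25 phosphatases, Cdk4, the kinase partner of the D cyclins, rose in CIA (0.48, SE 0.14, adjusted p = 0.0466) and 0 passed with MLIF. Of 7 CDK inhibitors, 0 passed in either comparison. Among 16 Rb, E2F and Myb genes, Myc rose in CIA and Rbl2, the retinoblastoma relative p130 that holds resting cells out of the cycle, fell. Myc had 8.26 and 8.33 in CIA+MLIF, 8.84 and 9.13 in CIA, 8.26 and 8.23 in adjuvant+MLIF, and 8.09 and 8.22 in adjuvant paws (0.83 in CIA, adjusted p = 0.00611, and -0.69 with MLIF, adjusted p = 0.0185). Rbl2 had 9.25 and 9.30 in CIA+MLIF, 8.12 and 8.87 in CIA, 9.33 and 9.28 in adjuvant+MLIF, and 9.36 and 9.51 in adjuvant paws (-0.94 in CIA, adjusted p = 0.0213, and 0.78 with MLIF, adjusted p = 0.0498). The CIA arrays of Rbl2 differed by more than those of Myc.

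**Figure D4:**
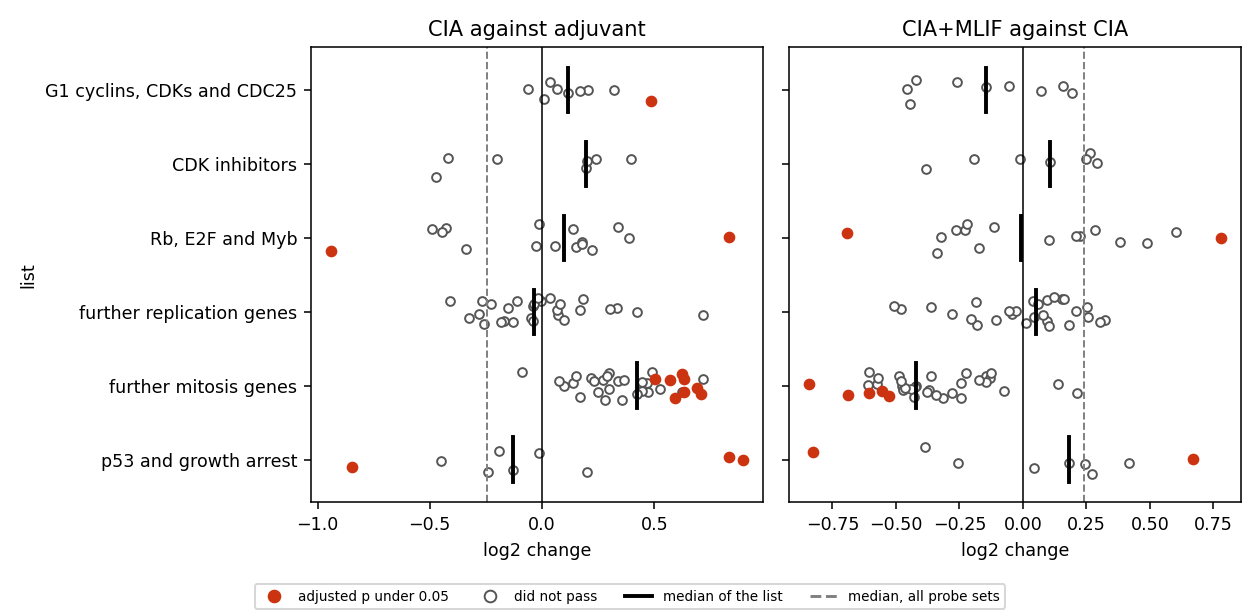
Log2 changes of the genes of the 6 further cell cycle lists in CIA against adjuvant and CIA+MLIF against CIA, 1 point per gene (filled for an adjusted p under 0.05), a short line at the list median and a dashed line at the median of all probe sets. The further mitosis genes have medians of 0.42 and -0.42, and the further replication genes have medians of -0.04 and 0.05.

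Markers of some cell types that can divide in a paw moved with these genes in CIA against adjuvant and in CIA+MLIF against CIA. B cell precursor and T cell markers did not, with medians of -0.10 and -0.18 in CIA and 0.10 and 0.14 with MLIF. All probe sets had medians of -0.25 and 0.24 in these comparisons. The part of any cell type in the result was not tested. Fewer cells of a type and less RNA per cell cannot be told apart in whole tissue. The marker counts in this and the next paragraph stand beside 4.30% of all probe sets that rose and 14.2% that fell in CIA. With MLIF in CIA, 11.5% rose and 3.25% fell. Granulocyte precursor markers rose in 7 of 8 cases in CIA and fell in 7 of 8 with MLIF. In adjuvant+MLIF against adjuvant, where 0 passed, they had a median change of 0.72, and the members 0.12. The mean of the granulocyte precursor markers, relative to each gene's own mean, was -0.35 and -0.34 in CIA+MLIF, 0.81 and 1.13 in CIA, 0.008 and 0.03 in adjuvant+MLIF, and -0.71 and -0.58 in adjuvant paws. Hair follicle matrix markers rose in 5 of 9 and fell with MLIF in 5 of 9, with means of -0.12 and -0.19 in CIA+MLIF, 0.59 and 0.89 in CIA, -0.32 and -0.32 in adjuvant+MLIF, and -0.19 and -0.34 in adjuvant paws. Krt28 of that list lay below the control median on all arrays. Fibroblast markers rose in 5 of 8 and fell with MLIF in 5 of 8, with means of -0.31 and -0.17 in CIA+MLIF, 0.50 and 0.59 in CIA, -0.10 and -0.10 in adjuvant+MLIF, and -0.27 and -0.14 in adjuvant paws.

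Basal keratinocyte markers had a different pattern. Their mean was 0.51 and 0.65 in CIA+MLIF, 0.82 and 1.03 in CIA, -0.76 and -0.76 in adjuvant+MLIF, and -0.69 and -0.79 in adjuvant paws. This mean stayed high in CIA+MLIF paws, but not every gene did. In CIA+MLIF against adjuvant+MLIF 3 of the 8 rose and 0 fell, beside 0.712% and 0.0173% of all probe sets. The changes had a median of 0.43 and ran from -0.04 to 4.71, with 2 below 0. Of the 8 genes, 4 rose and 1 fell in CIA, and 1 rose and 2 fell with MLIF. Red cell precursor markers rose in 2 of 6 and fell with MLIF in 2 of 6, and the defining genes Epb4.2, Rhag and Klf1 lay below the control median. Mature neutrophil markers, which belong to cells that no longer divide, rose in 7 of 7 and fell with MLIF in 7 of 7. Macrophage markers had medians of 0.23 in CIA and -0.44 with MLIF, beside -0.25 and 0.24 for all probe sets. Of these 8 markers, 2 rose and 1 fell in CIA, and 1 rose and 2 fell with MLIF. Endothelial markers had medians of 0.15 and -0.23, and 0 of 7 passed. Of 8 B cell precursor markers 2 fell in CIA and 1 rose with MLIF, and of 6 T cell markers 0 passed in CIA and 1 fell with MLIF. Dntt and Cd3d of these lists lay below the control median. All 10 skeletal muscle markers fell in CIA and rose with MLIF.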

How the data were processed

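RNA of excised paws (300 ng per array, biotin-labelled, per the labels' protocols) was measured on 8 arrays. The deposited table holds log2 signals, a unit read from its values. How the authors processed and normalized the arrays is not given in the sources used here. Of 35557 entries, 6613 without annotation were taken as array controls, an inference, and 28944 probe sets were tested, without a filter. Array tables carry no sequencing depth, and the number of arrays limits the precision.

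Group means of all 8 arrays were fitted with limma 3.58.1 in R 4.3.3 (degrees of freedom 4 residual plus 4.96 prior), with two-sided moderated tests and Benjamini-Hochberg adjustment over all probe sets. The fit was also run on simulated data. These had equal spread in all groups and no shifted array, unlike the data here, so no conclusion is drawn from that run. Tables and figures used Python 3.11.15, pandas 2.3.3 and matplotlib 3.10.9. The members and the 6 pathway and 11 marker lists were chosen with earlier results of these data known. Gene symbols came from the platform annotation, with older symbols matched through RefSeq. Promoter windows came from RefSeq (GRCm38.p6).

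Named with all arrays were the 6 S phase, 6 mitosis and 3 spanning members with the largest change in CIA against adjuvant and in CIA+MLIF against CIA. Added were the members that passed in the other comparisons, or the 2 with the smallest p, the 3 nearest to no change, and the 3 largest passing rises and falls of the pathway lists. Other members named were chosen after their values were seen. Alternatives were quantile normalization, centring, a filter on dim probe sets, the mean of probe sets, trended and robust variance, array weights, only the groups compared, a replicate block, other thresholds and class definitions, and leaving out each array. Averaging both adjuvant+MLIF arrays into 1, and quantile normalization without each CIA array, were chosen after seeing the data.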

Additional observations from a re-analysis of the deposited data

Results flagged for a closer look

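For 5 members the effect of MLIF differed between collagen-immunised and adjuvant mice by a test of the difference itself (limma's interaction term, adjusted over all probe sets). The difference of the log2 changes was -1.52 for Top2a, -1.49 for Mki67, -1.39 for Rrm2, -1.24 for Ccna2 and -1.21 for Plk1. MLIF changed Top2a by -1.18 in collagen-immunised and 0.33 in adjuvant mice, Mki67 by -1.18 and 0.31, Rrm2 by -1.23 and 0.16, Ccna2 by -1.03 and 0.22, and Plk1 by -1.04 and 0.18. None of the changes in adjuvant mice passed by itself. With 2 arrays per group no single array could be tested for standing apart. Without 1 adjuvant or adjuvant+MLIF array, or CIA+MLIF replicate 1, most of the 5 no longer passed.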

How the results depend on the processing

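Members called in CIA against adjuvant numbered 15 as reported, 33 after quantile normalization, 32 with centred arrays, 29 and 29 after quantile normalization without CIA replicate 1 or 2, 8 with the adjuvant+MLIF arrays averaged, 7 in a fit of only the groups compared, 1 with array weights, 4 at an adjusted p under 0.01 and 2 at an absolute log2 change of at least 1. In CIA+MLIF against CIA the 12 became 33, 33, 32 and 29, 7, 7, 2, 6 and 6 under the same settings. In the interaction the 5 became 27, 29, 28 and 26 and 2 under the first settings, 2 at an adjusted p under 0.01 and 10 without the dimmest tercile of probe sets. It uses all 4 groups, so the fit of only the groups compared was not run for it. Array weights called 2 in adjuvant+MLIF against adjuvant, and the share of all probe sets called under array weights is not given here. The share of all probe sets called moved with the scaling. In CIA against adjuvant 4.30% rose as reported, 14.4% after quantile normalization and 13.4% with centred arrays. In CIA+MLIF against CIA 3.25%, 13% and 12.1% fell under these settings, and in the interaction 1.62%, 8.79% and 8.13% were lower. Leaving out 1 array changed the member counts widely in these 3 comparisons, and the share of all probe sets called changed too. Without adjuvant replicate 1 or 2 most of the 15 no longer passed, and without CIA+MLIF replicate 1 most of the 12. The member medians ran from 0.24 to 0.67 in CIA against adjuvant, -0.78 to -0.26 in CIA+MLIF against CIA, and -0.86 to -0.40 in the interaction. The ends were the fits without CIA replicate 2 and without CIA replicate 1. The other comparisons still had no call. S phase minus mitosis in CIA against adjuvant (-0.23) was -0.29 after quantile normalization, -0.18 without the dimmest probe sets, -0.30 with the spanning genes counted as mitosis, -0.20 by class medians, and -0.27 to -0.20 without 1 array. In CIA+MLIF against CIA (0.24) it was 0.30, 0.17, 0.31, 0.28, and 0.23 to 0.25. In the interaction (0.22) it was 0.30, 0.14, 0.32, 0.31, and 0.19 to 0.26. The differences within the replicate SD were -0.022 by class medians and -0.019 to 0.049 without 1 array for adjuvant+MLIF against adjuvant, and -0.046 without the dimmest probe sets, 0.023 with the spanning genes as mitosis, 0.10 by class medians and -0.017 to 0.0011 without 1 array for CIA+MLIF against adjuvant+MLIF. No single member reversed its sign against its call. The cause of these shifts was not tested. Replicate numbers did not pair the samples (correlations of deviations between groups -0.11 to 0.39), and a replicate block left the member counts at 15, 12, 0, 0 and 5.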

Other observations

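Of 9 measured genes of the p53 and growth arrest list, 2 rose and 1 fell in CIA against adjuvant, beside 4.30% and 14.2% of all probe sets. In CIA+MLIF against CIA, 1 rose and 1 fell, beside 11.5% and 3.25%. With counts this small nothing is read from the list as a whole. Plk3, a stress-responsive polo-like kinase, had log2 signals of 7.42 and 7.28 in CIA+MLIF, 7.67 and 7.80 in CIA, 6.73 and 6.91 in adjuvant+MLIF, and 6.81 and 6.87 in adjuvant paws. It rose by 0.89 in CIA (SE 0.15, adjusted p = 0.00351), and its change of -0.38 with MLIF did not pass, so that both CIA+MLIF arrays stayed above all adjuvant arrays. Gadd45a, a stress-induced growth arrest gene, had 8.28 and 8.21 in CIA+MLIF, 8.86 and 9.28 in CIA, 8.09 and 8.10 in adjuvant+MLIF, and 8.23 and 8.25 in adjuvant paws (0.83 in CIA, adjusted p = 0.00937, and -0.83 with MLIF, adjusted p = 0.012). Ccng1, cyclin G1, a p53 target, went the other way, with 10.96 and 11.02 in CIA+MLIF, 10.20 and 10.44 in CIA, 11.10 and 11.09 in adjuvant+MLIF, and 11.22 and 11.11 in adjuvant paws (-0.85 in CIA, adjusted p = 0.00455, and 0.67 with MLIF, adjusted p = 0.0177).

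Members with and without a CHR match in their promoter window can be set side by side. In CIA against adjuvant the 17 measured members with a match had a median log2 change of 0.67, and 10 rose. The 15 without had a median of 0.43, and 3 rose, beside 4.30% of all probe sets. In CIA+MLIF against CIA the medians were -0.59 and -0.47, and 8 and 3 fell, beside 3.25% of all probe sets. The difference was not tested, and the match largely follows the split of mitosis from S phase genes. The spanning genes Top2a and Mki67 and the S phase genes Cdc45 and Mcm2 also held a match.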
